A study of Macaca mulatta with 24 samples.

Results

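The serpins and the genes of blood clotting and clot breakdown were followed in the jejunum of rhesus macaques after total-body irradiation (TBI). Members were every probe of the array whose gene symbol names a serpin of clades A to I, or 1 of a list of coagulation factors, fibrinogen chains, anticoagulants, plasminogen activators and the thrombin receptor. This gave 81 probes for 55 gene symbols, of 43603 probes for 16094 symbols in all, and 46 of the 81 probes, for 33 symbols, were serpins. The listed factors F5, F11 and PLAUR had no probe under those symbols.

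Serpins are inhibitors that a protease cuts and is then trapped by, and most members of the family act on serine proteases. Clotting starts when tissue factor meets factor VII and ends when thrombin turns fibrinogen into fibrin, and antithrombin, tissue factor pathway inhibitor and the protein C and protein S pair hold it in check. Fibrin is dissolved by plasmin, which is made from plasminogen by the activators PLAU (urokinase) and PLAT (tissue plasminogen activator). The serpin protease nexin-1 (SERPINE2) inhibits those activators, and many of the circulating proteins of this system are made mainly in the liver, while endothelium makes von Willebrand factor, PLAT and thrombomodulin.

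The animals were young adult male Macaca mulatta that received a single total-body dose of 6.7 or 7.4 Gy of cobalt gamma rays, and jejunum was taken 4, 7 or 12 days later. Unirradiated animals, labelled day 4, were the controls of both doses and of every day, so all comparisons with control share the same 4 arrays. There were 4 control arrays, 4 arrays for each dose on day 4 and on day 7, and 2 for each dose on day 12. Each of the 24 arrays held the RNA of 1 animal, and each animal was sampled once, so the days are different animals. The tissue was whole gut wall, in which fewer cells of a type and less RNA per cell cannot be told apart. One protocol text of the labels names day 21 where the sample labels and the methods have day 12, and day 12 was used here.

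Each array was a 1-colour Agilent rhesus array, and a level here is the log2 processed signal less that of the array's 75th percentile, so that a probe at 0 lies at that percentile. Levels of different probes were not compared with each other. Feature Extraction marked 17159 to 38226 of the 43603 probes of an array as well above background, and the lowest signal called so was 130 to 277 on the arrays of slide 5, 40.6 to 83.0 on those of slide 4 and 7.03 to 31.8 on the others. The enterocyte genes VIL1, LCT and SLC5A1, the goblet cell genes MUC2, CLCA1 and ZG16 and the smooth muscle genes ACTG2 and DES were well above background on all 24 arrays, as the label of the tissue asks. The 24 arrays lay on 6 slides of 4 positions, scanned on 2 days. All 4 controls lay at position 1 of their slides and were scanned on day 1 of scanning, whereas 2 of the 4 arrays of 6.7 Gy day 4 and 0 of the other irradiated arrays were at position 1.

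Testing was limited to probes that cleared the background on all arrays of some group, which left 43 member probes for 30 genes, and 28171 probes in all. Of the 81 member probes, 18 cleared the background on all 24 arrays and 12 on none. The untested genes were mostly the plasma proteins: prothrombin (F2), factors VII, VIII and IX, the fibrinogen chains FGA and FGG, plasminogen (PLG), antithrombin (SERPINC1), heparin cofactor II (SERPIND1), the protein Z inhibitor SERPINA10 and the thyroxine-binding globulin SERPINA7. SERPIND1, SERPINA9, SERPINA11 and SERPINB12 were not well above background on any array, and F13A1, the transglutaminase subunit that crosslinks fibrin, was so on 16 of 24. A change was called where limma gave a Benjamini-Hochberg adjusted p under 0.05 over all 28171 probes and the change was at least 2-fold.

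On day 4 the members stood higher than in control jejunum in large number, and on day 12 0 were called higher. With both doses averaged (8 arrays against 4), 14 of the 43 member probes were called higher and 3 lower, which is 17 of 43, against 2.88% of all probes tested called in that comparison, 1.8% higher and 1.08% lower. The 14 probes include those of A2M, PLAU, PROS1, SERPINA1, SERPINA3, SERPINB1, SERPINE2, SERPING1 and TFPI. The 3 lower probes are those of PROC, SERPINA2 and SERPINB11. The median change of the 43 member probes was 0.65 on the log2 scale, with 34 of them above 0, beside a median of -0.075 over all probes tested. In 12 of the 43 every irradiated array of day 4 was above every control array, as in 4.08% of all probes, and in 3 every one was below, as in 4.93%.

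The lists of both doses overlapped. After 6.7 Gy, 9 member probes were called on day 4, 7 higher and 2 lower, where 1.98% of all probes were called, 1.25% higher and 0.731% lower. After 7.4 Gy 13 were called, 10 higher and 3 lower, where 2.6% of all probes were called, 1.71% higher and 0.887% lower. The lists have 7 probes in common, of 9 and of 13, and share their controls. The median change of the 43 was 0.56 after 6.7 Gy and 0.72 after 7.4 Gy. These counts depended on single arrays more than the averaged count did: leaving out 1 array left 2 to 10 probes called for 6.7 Gy (2 without control replicate 2, control replicate 3 or 6.7 Gy replicate 3) and 5 to 11 for 7.4 Gy (5 without control replicate 2), but 12 to 17 for the average of both doses. The share of all probes called moved as well, from 0.834% to 2.18% for 6.7 Gy (0.834%, 1.1% and 1.06% without those 3 arrays), from 1.05% to 2.32% for 7.4 Gy (1.05% without control replicate 2) and from 2.13% to 3.01% for the average.

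**Figure D1:**
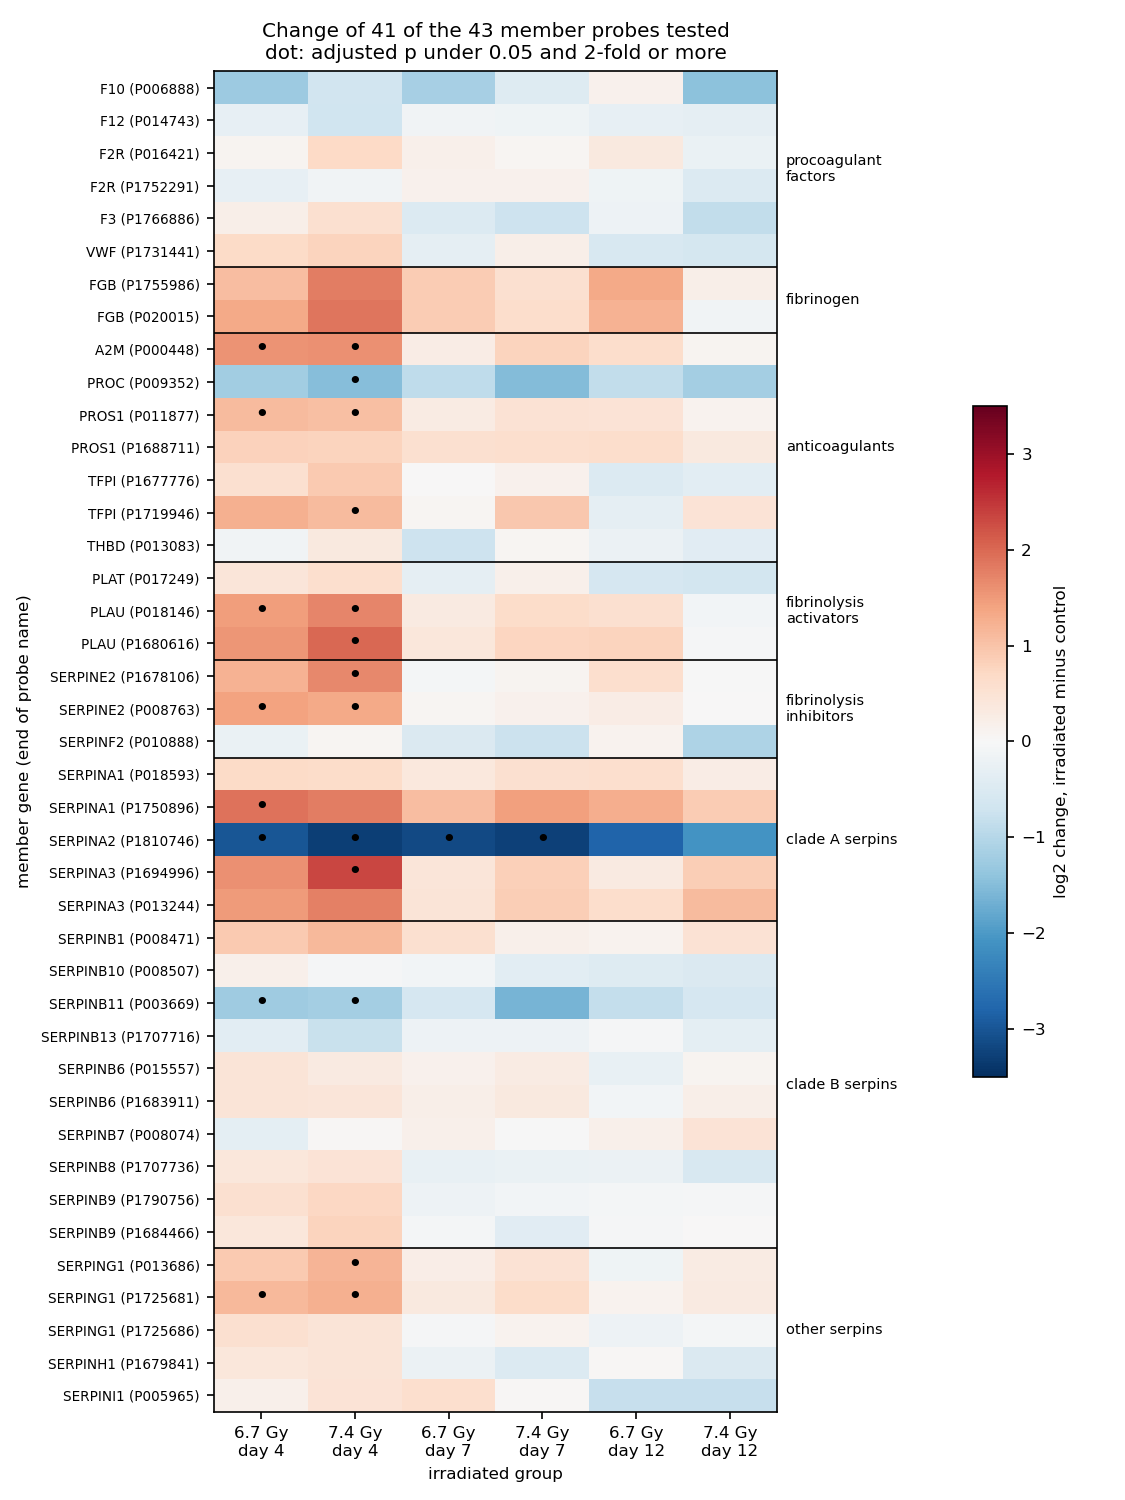
Log2 change from control of 41 of the 43 tested member probes, ordered by role (vertical axis), in the 6 irradiated groups (horizontal axis), with colour for the change and a dot where it was called. Day 4 columns hold 8 and 13 dots, day 7 columns 1 each and day 12 columns 0.

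The position of the arrays on their slides moved with irradiation. With position as a term in the model the day 4 average had 1 member called, SERPINA2, and 0.245% of all probes. The changes there were 1.17 for A2M (adjusted p 0.233), -1.13 for PROC (0.263), 1.15 for PROS1 (0.122), 0.95 and 0.99 for the SERPING1 probes (0.215 and 0.204), 0.92 and 1.12 for those of PLAU (0.442 and 0.411) and 0.77 and 0.72 for those of SERPINE2 (0.363 and 0.545). Within position 1 alone, replicates 1 and 2 of 6.7 Gy day 4 could be set beside the 4 controls: all 17 called probes went the same way there without overlap, 14 of them by at least 2-fold, where 11.4% of all probes were higher without overlap and 15.3% lower. Those 2 arrays were among the 8 that chose the 17 probes, and the limma comparison of these 6 arrays alone called 0 members and 0.135% of all probes.

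Among the anticoagulants A2M, PROS1 and the dim probe of TFPI were called higher on day 4 and PROC lower. A2M, the broad protease trap alpha-2-macroglobulin (probe A_01_P000448), read 2.70, 2.47, 2.29 and 2.46 in the 4 controls. On day 4 it read 3.25, 4.30, 4.42 and 4.23 after 6.7 Gy and 4.03, 4.11, 4.67 and 3.48 after 7.4 Gy. The lowest irradiated array of day 4 thus lay above the highest control. The change was 1.58 ± 0.27 on the log2 scale (SE, n = 8 and 4), 2.99-fold, with a limma adjusted p of 0.00142. A2M was called at each dose, by 1.57 and 1.59, and the call after 6.7 Gy was lost in 5 of 8 fits with 1 array left out: without control replicate 2 or 3 or 6.7 Gy replicate 2, 3 or 4.

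PROS1 encodes protein S, the cofactor of activated protein C. Its brighter probe read -2.42, -2.47, -2.67 and -2.36 in the controls, -1.43, -1.23, -1.26 and -1.57 on day 4 after 6.7 Gy, and -1.08, -1.64, -1.44 and -1.51 after 7.4 Gy. The groups did not overlap, and the change was 1.09 ± 0.19 on the log2 scale (SE, n = 8 and 4; 2.12-fold; limma adjusted p 0.00165). The brighter probe kept its direction but went under 2-fold with normexp background correction (0.85, adjusted p 0.00124) and with low values raised to a common floor (0.45, adjusted p 0.0105). The dimmer PROS1 probe moved by 0.79 with an adjusted p of 0.11 and was not called.

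PROC, protein C itself, the zymogen of the protease that inactivates factors V and VIII, read 0.34, 0.29, -0.75 and -0.54 in the controls. It read -1.50, -0.95, -1.68 and -1.37 on day 4 after 6.7 Gy and -1.24, -1.32, -1.91 and -2.16 after 7.4 Gy. Every irradiated array of day 4 was below every control, and the controls fell into a higher and a lower pair. PROC fell by 1.35 ± 0.27 on the log2 scale (SE, n = 8 and 4; 2.55-fold lower; limma adjusted p 0.00353). The PROC probe was well above background on 3 of the 4 arrays of 7.4 Gy day 4. It was still lower on day 7, by -1.21 (adjusted p 0.0217), and leaving out control replicate 1 or 2 ended that call (adjusted p 0.0826 and 0.0963). On day 12 PROC differed from control by -1.02 with an adjusted p of 0.287.

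TFPI, the inhibitor of tissue factor with factor VIIa, was measured by a bright and a dim probe. The bright probe read -0.79, -1.05, -0.46 and -0.85 in the controls and 0.18, 0.23, 0.03 and 0.11 on day 4 after 7.4 Gy, while 6.7 Gy gave -0.63, -0.71, 0.19 and 0.23, of which 2 lay within the controls. Its change of 0.74 had an adjusted p of 0.0421 but was under 2-fold. The dim probe was called, by 1.17 ± 0.34 (SE, n = 8 and 4; adjusted p 0.0311), and lost the call without control replicate 2, 3 or 4 or 6.7 Gy replicate 1 (adjusted p 0.05 to 0.101). The dim TFPI probe also lost it in 8 of 16 other settings, among them normexp background correction, no filter on dim probes, slide or scan day as a term and a common floor for dim signals, where its change was 0.09 (adjusted p 0.797). THBD, the endothelial thrombin receptor thrombomodulin that switches thrombin to activating protein C, was dim. THBD read -3.86, -3.39, -2.94 and -3.40 in the controls, -3.66, -3.17, -4.14 and -3.11 on day 4 after 6.7 Gy and -1.78, -3.57, -3.28 and -3.60 after 7.4 Gy, so that a single animal stood above the rest. Its change was 0.11 (adjusted p 0.867).

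The plasminogen activator PLAU rose on day 4, and PLAT was not called. The bright PLAU probe read -1.59, -1.49, -1.19 and -1.50 in the controls, -0.93, 0.09, 0.83 and 0.11 after 6.7 Gy and 0.67, -0.82, 0.78 and 0.43 after 7.4 Gy. The day 4 arrays were all above the controls and spread over a wider range than them. The change was 1.59 ± 0.34 on the log2 scale (SE, n = 8 and 4; 3.00-fold; limma adjusted p 0.00649), and the dim PLAU probe gave 1.77 ± 0.42 (3.42-fold; adjusted p 0.0114). The dim PLAU probe lost its call with quantile scaling and with low values raised to a common floor, where its change was 0.14 (adjusted p 0.657), and the bright one kept it in both. PLAT moved by 0.50 ± 0.26 with an adjusted p of 0.228, from 0.16, -0.52, 0.55 and 0.48 in the controls to 0.65, 0.79, 0.89 and 0.03 after 6.7 Gy and 1.19, 0.50, 1.11 and 0.18 after 7.4 Gy.

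SERPINE2 rose at the same time as PLAU, and SERPINF2 was not called. SERPINE2, or protease nexin-1, which inhibits thrombin and the plasminogen activators, read 0.32, 0.08, 0.18 and 0.31 on its bright probe in the controls. On day 4 it read 0.73, 1.16, 2.21 and 1.61 after 6.7 Gy and 2.50, 1.55, 2.41 and 1.18 after 7.4 Gy, again without overlap. The change was 1.45 ± 0.34 on the log2 scale (SE, n = 8 and 4; 2.72-fold; limma adjusted p 0.0104), and the dim SERPINE2 probe gave 1.37 ± 0.27 (2.59-fold; adjusted p 0.003). Both SERPINE2 probes, both PLAU probes, A2M, PROS1, PROC and SERPINA2 were called on day 4 whichever of the 12 arrays was left out, as was 1 SERPING1 probe. SERPINF2, the plasmin inhibitor alpha-2-antiplasmin, moved by -0.08 (adjusted p 0.942).

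**Figure D2:**
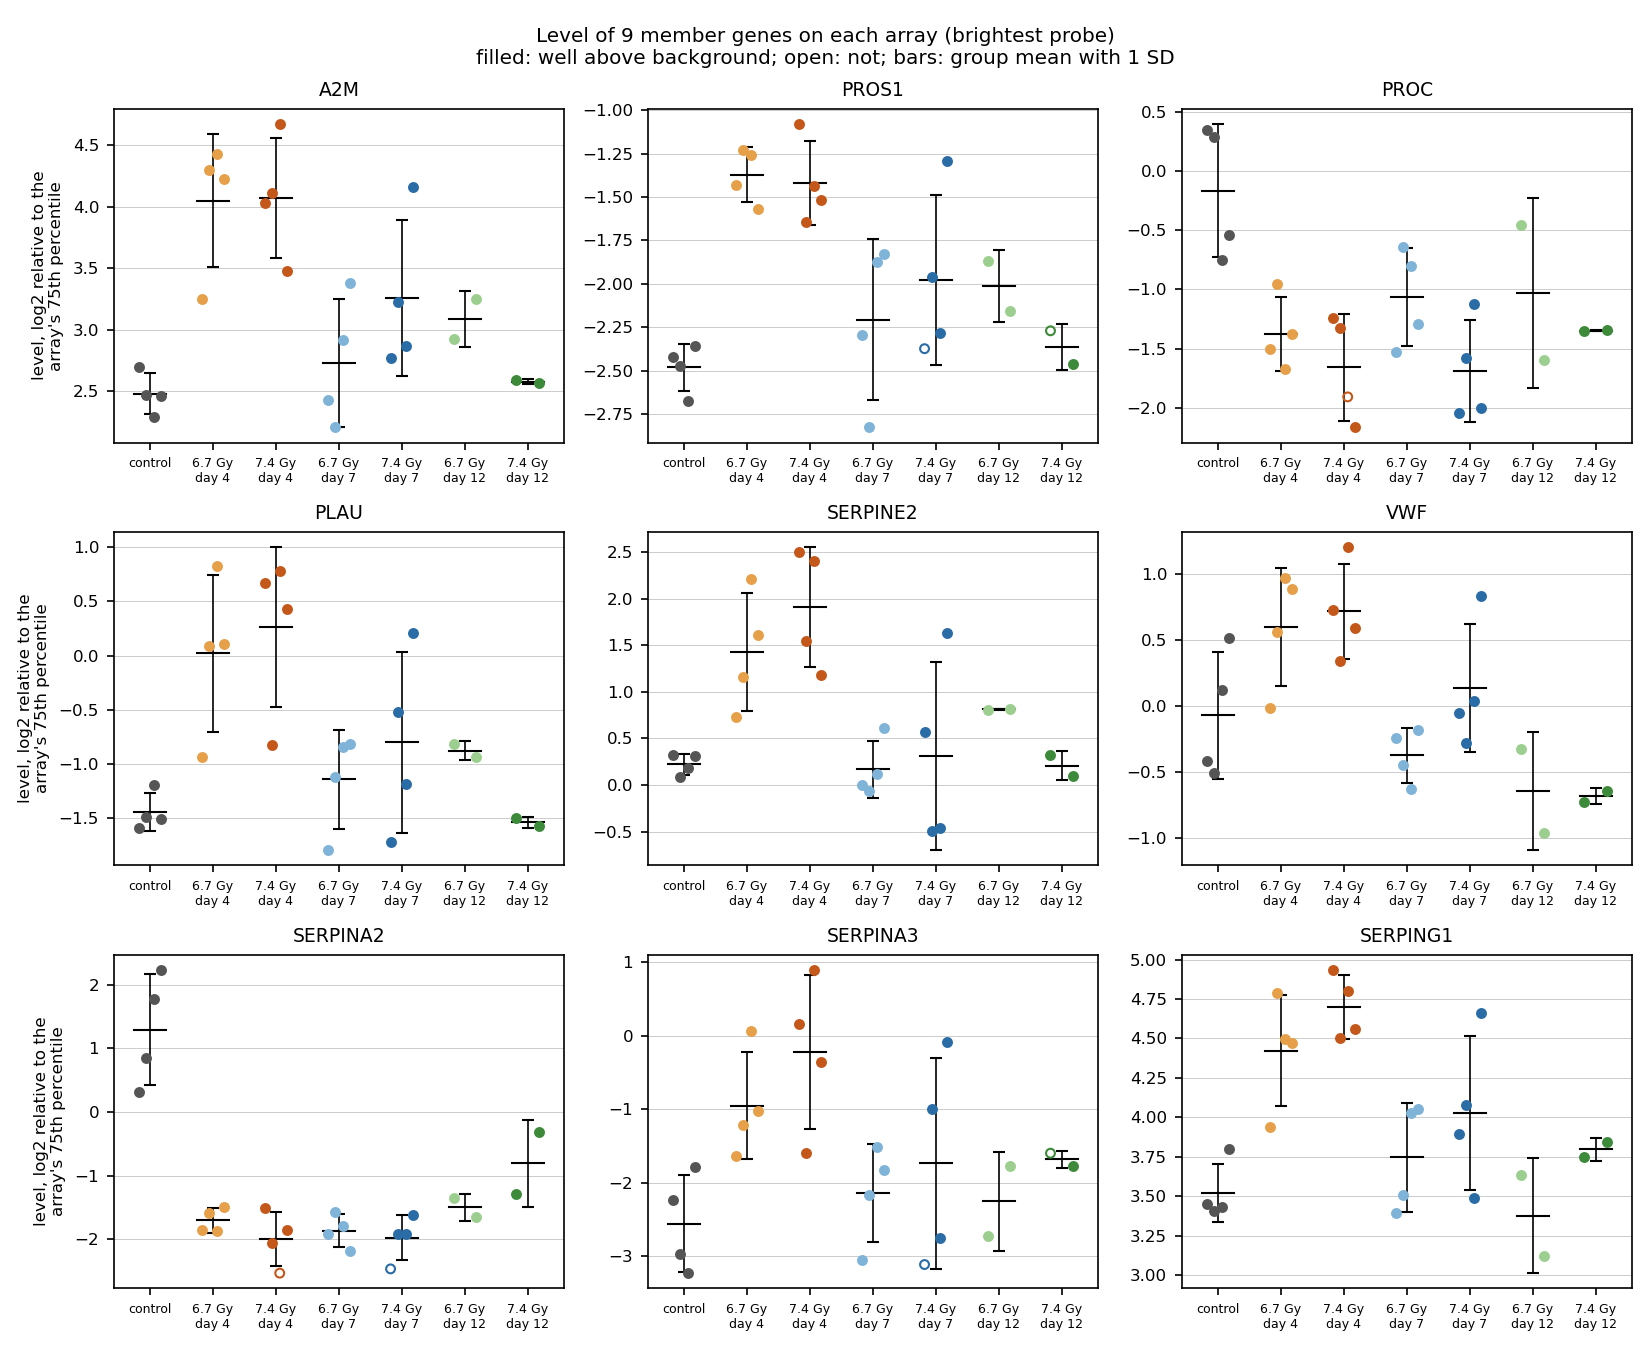
Log2 level, with 0 at the 75th percentile of its array (vertical axes), of 9 member genes on each of the 24 arrays, by group (horizontal axes), with filled points well above background, open points not, and bars for the group mean ± 1 SD. The 4 control arrays lie below all 8 day 4 arrays for A2M, PROS1, PLAU, SERPINE2, SERPINA3 and SERPING1 and above all of them for PROC and SERPINA2, while VWF overlaps.

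Of the tested factors that drive clotting none was called on day 4. Tissue factor, F3, read -2.85, -2.69, -2.93 and -3.12 in the controls, -3.71, -2.34, -2.19 and -2.48 on day 4 after 6.7 Gy and -1.64, -3.21, -2.18 and -2.28 after 7.4 Gy. The lowest array of each dose lay below all controls and the other 3 above them, and the change was 0.39 ± 0.31 (adjusted p 0.43). VWF, the endothelial protein that ties platelets to the vessel wall, read -0.42, -0.51, 0.12 and 0.52 in the controls, -0.02, 0.56, 0.97 and 0.89 on day 4 after 6.7 Gy and 0.72, 0.34, 1.21 and 0.59 after 7.4 Gy. Its change of 0.73 ± 0.24 (SE, n = 8 and 4) had an adjusted p of 0.0524. Factor XII, F12, was lower by -0.49 ± 0.14 with an adjusted p of 0.0251, under 2-fold, and factor X, F10, by -0.98 with an adjusted p of 0.144. The thrombin receptor F2R read -1.45, -1.95, -1.69 and -3.09 in the controls, -2.17, -1.66, -2.28 and -1.64 on day 4 after 6.7 Gy and -0.69, -2.06, -1.24 and -1.37 after 7.4 Gy. The groups overlapped, and the 2 probes of F2R moved by 0.40 and -0.20, with adjusted p of 0.384 and 0.778. F13A1, too dim to be tested, read -5.00, -5.19, -5.00 and -4.51 in the controls and between -4.68 and -2.77 on the 8 arrays of day 4, 5 of them well above background. By limma 0 of the 6 tested procoagulant probes were called in the day 4 average, where 2.88% of all probes were, and 1, that of F12, had an adjusted p under 0.05.

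Fibrinogen was measurable through its beta chain FGB alone. The bright FGB probe read from 0.06 to 2.10 in the controls, 2.08, 2.66, 0.59 and 3.19 on day 4 after 6.7 Gy and 0.42, 4.08, 3.31 and 3.57 after 7.4 Gy. FGB differed widely among the animals of 7.4 Gy day 4, and the lowest array of each dose lay within the controls. The changes of the 2 probes, 1.43 and 1.61, had adjusted p of 0.13 and 0.102.

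The clade A serpins held the largest single change among the members. The probe with the symbol SERPINA2 (A_01_P1810746), which the array describes as a putative relative of alpha-1-antitrypsin, read 0.31, 0.85, 1.78 and 2.24 in the controls. It read -1.86, -1.59, -1.87 and -1.50 on day 4 after 6.7 Gy and -1.51, -2.06, -2.54 and -1.86 after 7.4 Gy. It fell by 3.15 ± 0.28 on the log2 scale (SE, n = 8 and 4; 8.85-fold lower; limma adjusted p 1.47e-06). The SERPINA2 probe was well above background on 3 of the 4 arrays of 7.4 Gy day 4 and on 3 of the 4 of 7.4 Gy day 7. The controls were spread widely, and the highest of the 20 irradiated arrays, 7.4 Gy day 12 replicate 2 at -0.32, was still below the lowest control. SERPINA2 was lower by -3.22 on day 7 (9.31-fold; adjusted p 3.27e-06) and by -2.45 on day 12 (5.46-fold; adjusted p 0.00449), where leaving out 6.7 Gy replicate 2 ended the call (adjusted p 0.0602).

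In RefSeq the accession of the SERPINA2 probe belongs to the gene LOC701220, a protein-coding gene next to SERPINA1. It lies in a run of 10 neighbouring clade A genes, SERPINA10, SERPINA6, LOC701220, SERPINA1, SERPINA11, SERPINA9, SERPINA12, SERPINA4, SERPINA5 and SERPINA3. Of its neighbours SERPINA1 and SERPINA3 were tested, and their changes on day 4 were above 0. Closely related genes of such a run can share probe sequence, so these values are those of the probes and not of genes proven apart.

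SERPINA3, the acute-phase inhibitor alpha-1-antichymotrypsin, read -2.23, -2.97, -3.23 and -1.79 on its bright probe in the controls, -1.63, -1.21, 0.07 and -1.02 on day 4 after 6.7 Gy and 0.16, -1.59, 0.90 and -0.36 after 7.4 Gy. The 2 probes of SERPINA3 rose by 1.97 ± 0.52 (3.92-fold; adjusted p 0.0203) and 1.63 ± 0.45 (3.09-fold; adjusted p 0.0261). The SERPINA3 calls were lost without control replicate 2 or 3 for the bright probe (adjusted p 0.075 and 0.0719) and without control replicate 1 or 4 for the dim one (adjusted p 0.0518 and 0.116). The dim SERPINA3 probe also lost its call in 9 of 16 other settings, among them normexp background correction (0.88), the common floor (0.42), the methods' t-test and scan day as a term, and the bright one in 4 of 17: the common floor (1.25, adjusted p 0.0554), slide or position as a term and scan day 1 alone. SERPINA1, alpha-1-antitrypsin, the main plasma inhibitor of neutrophil elastase, read -1.43, -1.47, -1.05 and -0.81 on its bright probe in the controls, -0.10, -0.97, -0.39 and -0.63 on day 4 after 6.7 Gy and 0.35, -1.26, -0.44 and -0.88 after 7.4 Gy. That probe moved by 0.65 (adjusted p 0.276). The dim SERPINA1 probe was called at 1.85 ± 0.48 (3.61-fold; adjusted p 0.0192), and the call was lost without control replicate 1 or 2 (adjusted p 0.0567 and 0.0818). It was also lost in 5 of 16 other settings for that SERPINA1 probe: the common floor (0.52, adjusted p 0.396), scan day or position as a term, and without slide 5 or slides 4 and 5.

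Clade B serpins act inside cells, and 2 of the 8 tested genes were called on day 4, 1 higher and 1 lower, where 1.8% of all probes were called higher and 1.08% lower. SERPINB1, an inhibitor of neutrophil elastase and cathepsin G, read 2.77, 3.11, 2.81 and 2.01 in the controls, 4.06, 3.83, 3.32 and 3.19 on day 4 after 6.7 Gy and 4.12, 3.29, 4.18 and 3.67 after 7.4 Gy. It rose by 1.03 ± 0.26 (SE, n = 8 and 4; 2.04-fold; adjusted p 0.0161). That is close to the 2-fold limit, and the SERPINB1 call was lost without control replicate 4 (0.81, adjusted p 0.0704) and, through the 2-fold limit, without 6.7 Gy replicate 1 or 2 or 7.4 Gy replicate 1 or 3 (0.96 to 0.99). The SERPINB1 call was also lost in 7 of 18 other settings: slide as a fixed or random term, scan day or position as a term, scan day 1 alone, and without slide 5 or slides 4 and 5. SERPINB11 read -0.55, -0.17, -0.76 and -0.83 in the controls and from -2.27 to -1.37 on day 4, a fall of 1.21 ± 0.37 (2.32-fold lower; adjusted p 0.0411) that was lost in 9 of 12 fits with 1 array left out (adjusted p 0.0532 to 0.136) and in 8 of 17 other settings. The SERPINB11 probe was well above background on 3 of the 4 arrays of 7.4 Gy day 4. The granzyme B inhibitor SERPINB9 moved by 0.65 and 0.59 on its 2 probes (adjusted p 0.0912 and 0.0985), and SERPINB6 by 0.38 and 0.44 (adjusted p 0.121 and 0.0609).

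SERPING1, the C1 inhibitor of the complement and contact systems, had 3 tested probes. The brightest read 3.45, 3.41, 3.43 and 3.80 in the controls, 3.94, 4.79, 4.50 and 4.47 on day 4 after 6.7 Gy and 4.94, 4.50, 4.80 and 4.56 after 7.4 Gy. The ranges did not overlap, and control replicate 4 stood apart from the other controls. SERPING1 rose by 1.04 ± 0.20 on that probe (2.06-fold; limma adjusted p 0.00256) and by 1.19 ± 0.21 on another (2.29-fold; adjusted p 0.00135), while the third gave 0.51 (adjusted p 0.116). Without 6.7 Gy replicate 2 the brightest SERPING1 probe was at 0.98, under 2-fold, with an adjusted p of 0.0055. SERPINH1, the collagen chaperone HSP47, read 2.17, 1.82, 1.91 and 1.90 in the controls, 2.12, 2.27, 2.86 and 2.13 on day 4 after 6.7 Gy and 2.97, 2.09, 2.73 and 1.79 after 7.4 Gy. Its change of 0.42 ± 0.24 had an adjusted p of 0.258. SERPINI1, or neuroserpin, a serpin best known from neurons, read 1.31, 0.08, 1.28 and 0.34 in the controls and from 0.25 to 1.52 on day 4, a change of 0.33 (adjusted p 0.581).

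After day 4 fewer members were called against control. With both doses averaged, 2 of 43 member probes were called against control on day 7, PROC and SERPINA2, both lower, where 0.877% of all probes were called. SERPINB11, called lower on day 4, differed from control by -1.11 on day 7 (adjusted p 0.111) and by -0.71 on day 12 (adjusted p 0.66) and was called on neither day. Within a dose 1 was called on day 7, SERPINA2, where 0.0639% of all probes were called after 6.7 Gy and 0.288% after 7.4 Gy. The 6.7 Gy animals of day 7 lay on the same slides as the controls, number by number, and with slide or replicate number as a term in those groups 0 were called, at either dose. The SERPINA2 call was also lost in 7 of 8 fits with 1 array left out after 6.7 Gy (all but control replicate 1) and in 5 of 8 after 7.4 Gy (control replicates 2 and 3 and 7.4 Gy replicates 1, 2 and 4). On day 12 the average of both doses had 1 called, SERPINA2, where 0.0532% of all probes were called. The single doses had 0 members called on day 12 by limma (0.0071% of all probes after 6.7 Gy and 0.00355% after 7.4 Gy), 2 and 3 members at an unadjusted p under 0.05 with 2-fold (1.83% and 2.55% of all probes), and 0 by the methods' t-test, with 2 irradiated arrays each.

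**Figure D3:**
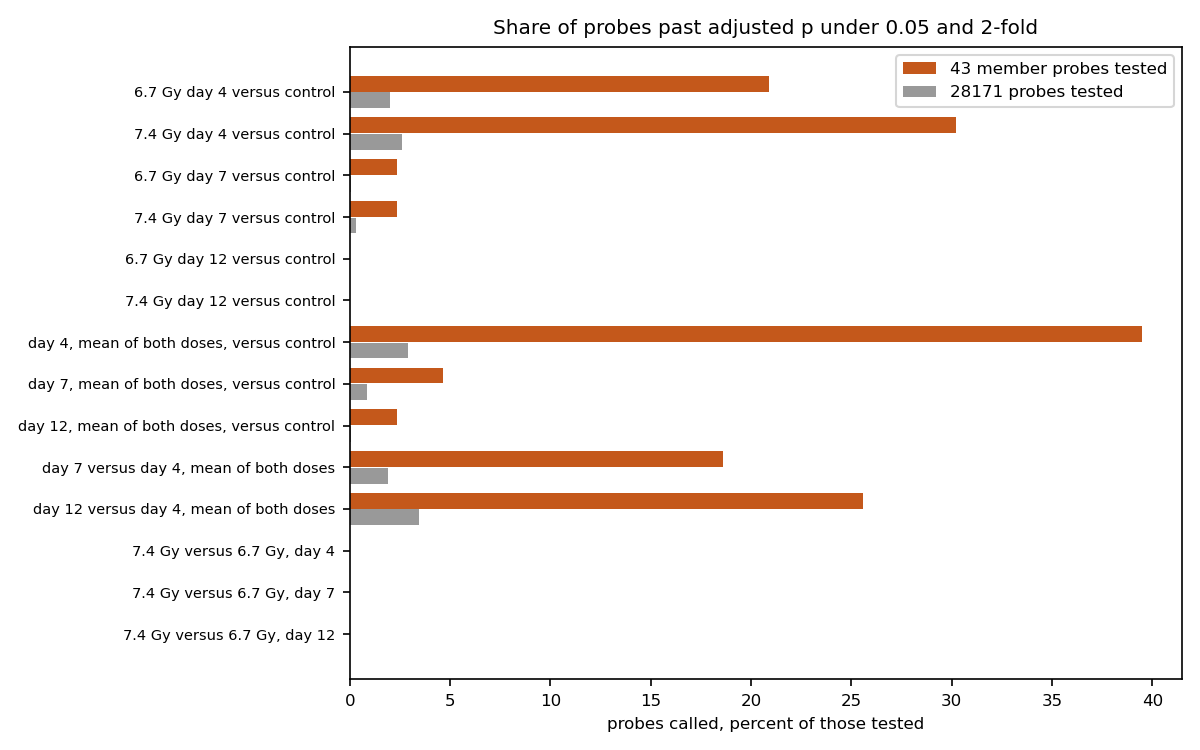
Share of probes called, in percent (horizontal axis, from 0), for the 43 tested member probes and for all 28171 tested probes in the 14 comparisons (vertical axis). The day 4 average has 17 of 43 members called against 2.88% of all probes.

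From day 4 to day 7, 8 member probes were called lower and 0 higher, where 1.88% of all probes were called, 0.99% lower. The groups overlapped in each of them: in 0 of the 43 was every day 7 array below every day 4 array, as in 0.628% of all probes. They included those of A2M (-1.07, adjusted p 0.0031), PLAU (-1.11 and -1.20, adjusted p 0.0101 and 0.0218), SERPINA3 (-1.35, adjusted p 0.0339) and SERPINE2 (-1.26 and -1.43, adjusted p 0.000712 and 0.00168). On day 7 A2M read 2.43, 2.21, 2.91 and 3.38 after 6.7 Gy and 2.77, 3.22, 2.86 and 4.16 after 7.4 Gy, with 7.4 Gy replicate 4 the highest. SERPINE2 on its bright probe read 0.00, -0.06, 0.11 and 0.61 after 6.7 Gy and 0.57, -0.50, -0.46 and 1.63 after 7.4 Gy, and the same animal, replicate 4, was the highest there too.

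Leaving out 1 array gave 3 to 10 calls in place of 8. The count was 3 without 6.7 Gy day 4 replicate 3, 7.4 Gy day 4 replicate 3 or 7.4 Gy day 7 replicate 1. The share of all probes was 1.59%, 1.9% and 1.77% without those arrays in that order, beside 1.88% with all arrays. Both SERPINE2 probes were called in all 16 fits. A2M went under 2-fold without 7.4 Gy day 4 replicate 3, 6.7 Gy day 7 replicate 2 or 7.4 Gy day 7 replicate 1 (-0.97 to -0.99). SERPINA3 lost its call in 7 of the 16 fits, the bright PLAU probe in 2 (without 6.7 Gy day 4 replicate 3 or 7.4 Gy day 7 replicate 1) and the dim PLAU probe in 3 (without either of those or 7.4 Gy day 4 replicate 3). Tissue factor F3 (-0.98, adjusted p 0.0113), VWF (-0.78, adjusted p 0.00943) and SERPINH1 (-0.76, adjusted p 0.0108) were lower on day 7 than on day 4 by less than 2-fold.

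From day 4 to day 12, 11 probes were called lower and 0 higher, where 3.43% of all probes were called, 2.12% lower. VWF had the smallest adjusted p among them: it read -0.33 and -0.96 on day 12 after 6.7 Gy and -0.72 and -0.64 after 7.4 Gy, against -0.02 to 1.21 on day 4, a fall of 1.32 ± 0.24 (SE, n = 4 and 8; 2.5-fold; adjusted p 0.00175). Its day 12 level was not called against control (-0.59, adjusted p 0.532). Also called were A2M (-1.23), both PLAU probes (-1.35 and -1.41), both SERPINE2 probes (-1.23 and -1.16), both TFPI probes (-1.18 and -1.10), PLAT (-1.10) and SERPINI1 (-1.13), with adjusted p from 0.00284 to 0.0386. PLAT read -0.20 and -0.62 on day 12 after 6.7 Gy and -0.72 and -0.20 after 7.4 Gy, and SERPINI1 -0.01 and -0.09, and 0.14 and -0.23. All 4 day 12 animals lay below every day 4 animal for both genes, as in 9 of the 43 member probes and in 4.69% of all probes.

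VWF, A2M and the dim SERPINE2 probe kept their calls in all 12 fits with 1 array left out. PLAT lost its call without 6.7 Gy day 12 replicate 2 or 7.4 Gy day 12 replicate 1 (adjusted p 0.0534 and 0.0635), the bright PLAU probe without the same arrays (adjusted p 0.0523 and 0.0509), and the count was 5 in place of 11 without either of them. The share of all probes was 2.88% without the first of these arrays and 2.34% without the second, beside 3.43% with all arrays. SERPINI1 lost its call in 9 of the 12 fits, and the dim TFPI probe, the bright SERPINE2 probe and the dim PLAU probe in 6 each; the bright TFPI probe went under 2-fold without 7.4 Gy day 12 replicate 1 (-0.86). Of the probes called lower from day 4, 6 were common to day 7 and day 12, of 8 and of 11, and these comparisons share the arrays of day 4. The genes called higher against control on day 4 and then lower on day 7 or day 12 rest on those arrays too, so those calls are not independent.

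No difference between the doses was called. At 7.4 against 6.7 Gy limma called 0 of 43 member probes on each of the 3 days, where 0% of all probes were called. At an unadjusted p under 0.05 with 2-fold the members counted 0 on day 4 (0.277% of all probes), 2 on day 7 (0.735%) and 1 on day 12 (1.88%), and the methods' t-test called 0. The dose by day F test gave 0 members at an adjusted p under 0.05 and 1 at an unadjusted p under 0.05. With 4 arrays a group on days 4 and 7 and 2 on day 12, this does not show that the doses acted alike.

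A list of 50 further coagulation, contact, protein C and fibrinolysis genes had 38 on the array and 23 tested, of which 3 were called higher on day 4 with both doses averaged (1.8% of all probes) and 0 lower (1.08%). The median change over the 23 was -0.019. The summed level of the 38 ran from 7.957 to 8.147 on day 4 after 6.7 Gy and from 7.852 to 8.142 after 7.4 Gy. Every array lay below the controls at 8.151 to 8.287. That sum was taken on the linear scale and is weighted to its brightest probes. These were ENO1, ANXA2 and PRSS8, at mean levels of 6.94, 5.90 and 5.29, so it does not show a fall of the list as a whole. The 3 called were LRP1 (1.06), the scavenger receptor that clears complexes of serpins with proteases, PROCR (1.20), the endothelial receptor of protein C, and THBS1 (1.20), thrombospondin. THBS1 was then lower by -1.02 on day 7 and by -1.08 on day 12 than on day 4.

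Fibroblast markers moved with the day 4 levels, and markers of macrophages and endothelium did so in part, and their part in the results was not tested. Levels of a list were summed on the linear scale and given as log2, so the brightest markers weigh most in a sum. The sum of the 7 fibroblast markers on the array ran from 5.16 to 6.14 in the controls, from 6.41 to 6.62 on day 4 after 6.7 Gy and from 6.65 to 7.51 after 7.4 Gy, so every day 4 array lay above the controls. On day 7 it ran from 4.75 to 5.89 and from 5.33 to 6.96. COL6A3 (1.49) and DCN (1.08) were called higher on day 4 with both doses averaged, 2 of the 6 tested fibroblast markers, whose median change was 1.01. After 7.4 Gy 5 of the 6 were called higher, with a median of 1.20, and after 6.7 Gy 1 of the 6, with a median of 0.81.

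The 8 endothelial markers summed to 2.12 to 2.58 in the controls, 2.49 to 2.94 on day 4 after 6.7 Gy, 2.51 to 3.09 after 7.4 Gy and 1.77 to 2.04 on day 12. Of the 8 tested, 0 were called by limma against control on day 4, and KDR fell by 1.14 from day 4 to day 12, 1 of 8 called, beside the fall of VWF, TFPI and PLAT. The median change of the 8 from day 4 to day 12 was -0.51, and that of the 6 tested fibroblast markers was -1.08, with 3 of the 6 called lower. Of 6 mast cell markers tested 1 was called lower from day 4 to day 12 (median -0.80), as was 1 of 7 macrophage markers (median -0.30). The 8 macrophage markers on the array summed to 5.70 to 5.93 in the controls, 5.84 to 6.66 after 6.7 Gy and 6.34 to 6.59 after 7.4 Gy on day 4, with CD14 called higher (1.09), 1 of 7 tested. The 6 enterocyte markers ran from 7.67 to 7.92 in the controls and from 7.26 to 7.98 on day 4, with VIL1 called lower (-1.29), beside the fall of PROC, SERPINA2 and SERPINB11. The median change of the 6 enterocyte markers was -0.69 on day 4, with 2 of the 6 called lower after 6.7 Gy and 0 after 7.4 Gy. Their sum ran from 6.84 to 7.69 on day 7 after 6.7 Gy and from 6.37 to 7.42 after 7.4 Gy, where SERPINA2 and PROC were still low, with 1 of the 6 called lower in the day 7 average. All 6 tested proliferation markers were called higher in that average (median change 1.15), and their sum ran from 3.65 to 4.75 on day 7, above the controls at 2.93 to 3.30. Of 4 goblet cell markers tested 1 was called lower in the day 4 average (median -0.51), and of 4 pancreatic acinar markers 1 was called higher at each dose on day 4. The part of these markers in the results was not tested either.

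Markers of liver and of platelets were detected in part. The 7 hepatocyte plasma protein genes on the array summed to 2.58 to 3.65 in the controls, 3.20 to 4.59 on day 4 after 6.7 Gy and 3.18 to 3.63 after 7.4 Gy, with albumin (ALB) well above background on 12 of 24 arrays and AHSG on 4, but TTR, APOA2 and FETUB on all 24, APOH on 23 and HP on 17. On day 7 these 7 genes summed to 3.77 to 4.10 after 6.7 Gy, all above the highest control, and to 3.42 to 4.14 after 7.4 Gy, with 1 of the 5 tested called higher in the day 7 average. The 6 platelet genes summed to 3.18 to 3.58 in the controls and 3.23 to 3.49 on day 4, with PF4 above background on 2 arrays, PPBP on 1 and TUBB1 on 0, but ITGA2B on 14 and GP9 and NRGN on all 24. The platelet sum was mostly NRGN, at a mean level of 3.28 beside -0.13 for GP9, the next brightest. It thus says little of the other platelet genes.

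**Figure D4:**
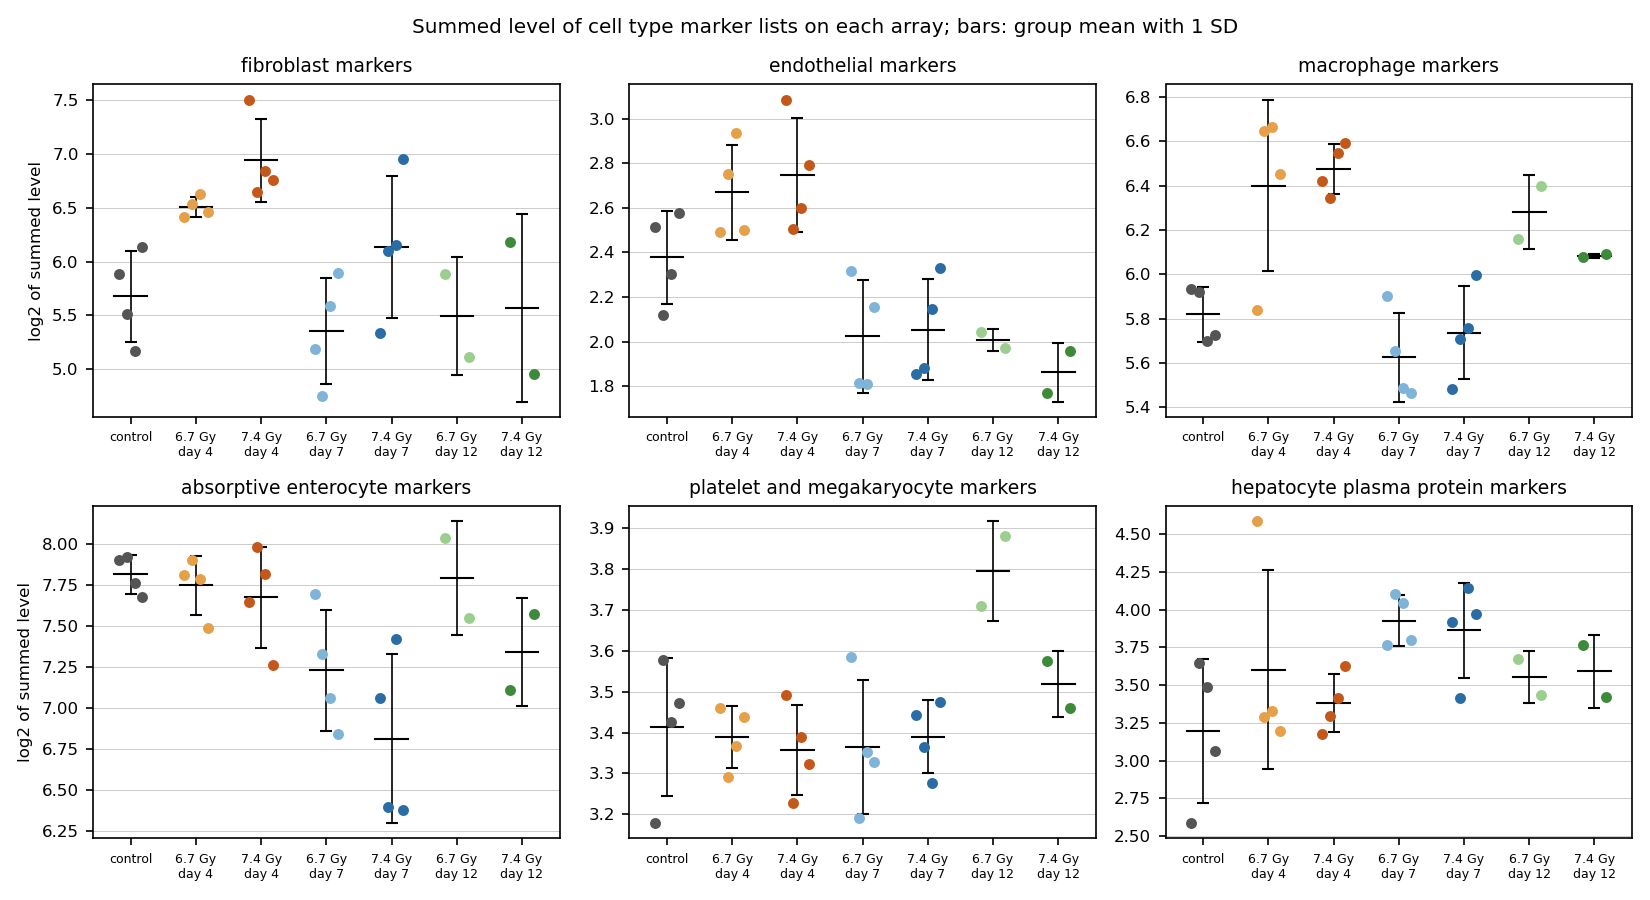
Summed log2 level (vertical axes) of fibroblast, endothelial, macrophage, enterocyte, platelet and hepatocyte plasma protein markers on each of the 24 arrays, by group (horizontal axes), with a point per array. The fibroblast sums of all 8 day 4 arrays, from 6.41 to 7.51, lie above those of the 4 controls. The platelet sums are mostly NRGN.

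The scanning of the arrays touched the counts as well as the position did. On the arrays of scan day 1 alone 13 members were called in the day 4 average (2.44% of all probes), with slide as a term in the model 13 (3.55%), and without slides 4 and 5, whose background was highest, 10 (2.57%). Among the 18 members that were well above background on all 24 arrays 7 were called, all of them higher (2.76% of all probes so measured). With every low value raised to a common floor of -1.85 on the level scale 10 were called (1.56%).

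**Figure D5:**
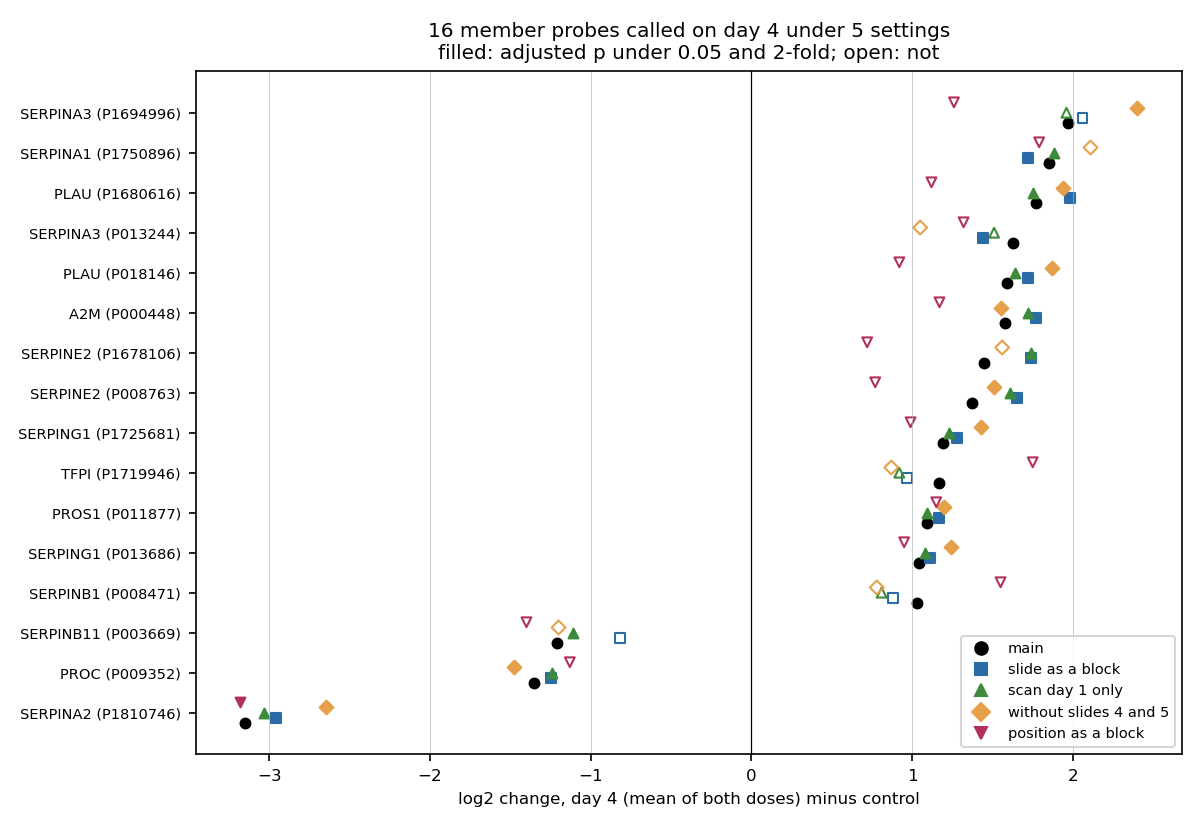
Log2 change from control on day 4, both doses averaged (horizontal axis), of 16 of the 17 called member probes (vertical axis) as reported and with slide as a term, on scan day 1 alone, without slides 4 and 5 and with position as a term, with filled points where called. The sign held in each, and with position as a term SERPINA2 alone was called.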

How the data were processed

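RNA of 24 jejunum samples, 1 per animal, was hybridised to 1-colour Agilent rhesus 44K arrays. Per the file headers the authors extracted each spot with Agilent Feature Extraction 11.0.1.1 on a grid of the build rheMac2, and the deposited processed signal is a background-subtracted intensity. A series-wide table deposited by the authors holds log2 values, scaled to the 75th percentile of each array and centred on the median of each probe over the arrays, and used in place of the scanner files it gave the same counts of called members. In the deposited table of raw signal 99.89% of values matched the scanner files within 0.001 log2. The deposited lists of the authors' own fold changes and p-values were not used, and 0 columns of other series were met.

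Here log2 processed intensity minus log2 of the 75th percentile of the array was taken, spots of a probe were averaged without those marked nonuniform, and probes that cleared the background on all arrays of any of the 7 groups were tested (28171). limma 3.58.1 in R 4.3.3 (lmFit and eBayes) compared each irradiated group with the controls on the arrays of these 2 groups, and day and dose averages were contrasts of 1 model of all 24 arrays. P-values were adjusted by Benjamini-Hochberg over all 28171 probes. The fits were also run on simulated data with independent noise and no effect of slide, scan day or position, which checks the code and not the layout. A dim probe of a gene is any but its brightest. Precision is limited by the number of arrays, 2 or 4 a group, and p-values measure the spread between these animals. Genes were taken from the symbols of the files: of 53 member probes with a RefSeq accession 41 were found in the RefSeq table, 40 under the same symbol. No sequences or coordinates of the members were used. Described with their values were the members called in any comparison, with F3, F13A1, F2R, THBD, TFPI, PROS1, VWF, PLAT, PLAU, A2M, SERPINA1, SERPING1 and SERPINH1 whether called or not, each by its brightest probe and by others that differed; further genes named were chosen after their values were seen. The values of 1 member gene, which is part of the counts, are not reported here. The members and the gene lists were chosen with earlier results of these data known.

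The alternatives were another scaling (percentile over detected probes, quantile), background (normexp with offset 50 on the median signal in place of the mean signal that had been planned), the dim filter, a common floor, slide, scan day and position, the replicate number as a block, the methods' t-test, 1 probe per gene, and leaving out each array. Leaving out slide 5, slides 4 and 5, and position 1 alone were chosen after seeing the data.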

Additional observations from a re-analysis of the deposited data

Results flagged for a closer look

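In the groups of 4 arrays, the highest or lowest array of a group was set against the others by Dixon's gap over range at its critical value, for 26 member probes in 130 groups; 6 stood apart, and chance alone marks about 1 group in 20. On day 4 after 6.7 Gy, A2M replicate 1 read 3.25 where the others read 4.23 to 4.42, and SERPINI1 replicate 2 read 0.25 where the others read 1.06 to 1.22. On day 7 after 7.4 Gy, SERPINA1 on its bright probe read 1.04 in replicate 2 where the others read -1.25 to -1.13. On day 7 after 6.7 Gy, the dim SERPINA1 probe read -1.26 in replicate 3 where the others read -2.71 to -2.52, and the bright TFPI probe read -1.41 in replicate 2 where the others read -0.60 to -0.52. SERPING1 on its brightest probe read 3.80 in control replicate 4 where the other controls read 3.41 to 3.45.

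The change from control differed between days by the test of the day contrast itself in 16 results. From day 4 to day 7 these were A2M (-1.07), PLAU (-1.11 and -1.20), SERPINA3 (-1.35) and SERPINE2 (-1.26 and -1.43). From day 4 to day 12 they were A2M (-1.23), PLAT (-1.10), PLAU (-1.35 and -1.41), SERPINE2 (-1.23 and -1.16), SERPINI1 (-1.13), TFPI (-1.18 and -1.10) and VWF (-1.32).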

How the results depend on the processing

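Of the settings tried, none turned the sign of a called member's change. The deposited log2 table, the scaling over detected probes and quantile scaling gave counts within 1.5 times those reported in every comparison. Counts below are of called member probes beside those reported, which were 9 and 13 on day 4 after 6.7 and 7.4 Gy, 1 and 1 on day 7, 17, 2 and 1 for the day 4, day 7 and day 12 averages, 8 for day 7 against day 4 and 11 for day 12 against day 4. Dose contrasts stayed at 0 wherever they could be run.

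On day 4, the counts after 6.7 and 7.4 Gy were 2 and 6 with the common floor, 2 and 5 by the methods' t-test, 2 and 2 with no dim filter, 5 and 7 over probes detected on all arrays, 2 and 1 with position as a term, 4 and 1 on scan day 1 and 0 and 0 with slide as a term in the 2 groups. The share of all probes called, 1.98% and 2.6% as reported, was then 0.568% and 1.06%, 0.55% and 1.07%, 0.232% and 0.222%, 2.42% and 3.17%, 0.632% and 0.0603%, 0.724% and 0.458%, and 0.0177% and 0%, in the same order. After 7.4 Gy it was 6 without slide 5 and 0 without slides 4 and 5 (0.0426% of all probes), and after 6.7 Gy it was 0 at position 1 alone. The day 4 average was 10 with 1 probe per gene (then genes), 10 with the common floor, 7 over probes detected on all arrays, 1 with position as a term, 11 with scan day as a term and 10 without slides 4 and 5. The shares of all probes were 3.21%, 1.56%, 2.76%, 0.245%, 2.95% and 2.57% in that order, beside 2.88% as reported. On day 7 each dose had 0 with the common floor, the t-test, no dim filter, detected probes alone, slide in the 2 groups and without slides 4 and 5, and 7.4 Gy had 0 on scan day 1 and without slide 5. The 7.4 Gy count was 3 with all arrays in 1 model or slide as a random term, and 2 with normexp, scan day or slide as a term, or trend and robust variance. For 6.7 Gy day 12, all arrays in 1 model, scan day or slide terms gave 1.

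The day 7 average was 1 by the t-test, with no dim filter, normexp, scan day 1, without slide 5 and without slides 4 and 5, and 0 over detected probes. The day 12 average was 0 by the t-test, over detected probes and without slides 4 and 5. For the day 7 and day 12 averages the shares of all probes under these settings are not given. Day 7 against day 4 was 5 with 1 probe per gene, the t-test, no dim filter, scan day 1 and without slide 5, and 4 with the common floor, normexp and detected probes. In the settings with 5 the shares of all probes were 2.13%, 1.69%, 1.2%, 1.79% and 1.97% in that order, beside 1.88% as reported. Day 12 against day 4 was 7 with 1 probe per gene, the common floor, no dim filter, normexp and detected probes, and 5 without slides 4 and 5. The shares of all probes were 3.76%, 1.51%, 1.86%, 1.78%, 2.51% and 1.44% in that order, beside 3.43% as reported. Some of these settings test fewer probes or fewer arrays by construction, and for the others the cause was not tested.

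The labels tie the replicate numbers to nothing beyond the animal, though in 6.7 Gy day 7 against control equal numbers also share a slide. Same-numbered arrays correlated from -0.164 to 0.238, not all over 0.1. With the replicate block the counts were 2 and 1 on day 4, 0 and 0 on day 7 and 6 for day 12 against day 4, and 16 for the day 4 average. The shares of all probes were 0.33% and 0.458% on day 4, 0.00355% and 0.0106% on day 7, 2.28% for day 12 against day 4 and 2.95% for the day 4 average. In 6.7 Gy day 7 against control each array correlated best with its own number (0.095 to 0.238).

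Leaving out 1 array gave 2 to 10 and 5 to 11 on day 4, 0 to 1 and 0 to 1 on day 7, 12 to 17, 1 to 3 and 0 to 1 for the averages, 3 to 10 for day 7 against day 4 and 5 to 15 for day 12 against day 4. On day 7 the share of all probes ran from 0.0071% to 0.0284% after 6.7 Gy and from 0.039% to 0.809% after 7.4 Gy. The shares for day 4, and for the fits with the fewest calls between days, are given above. The day 7 counts of 1 became 0 without any array but control replicate 1 for 6.7 Gy, and any but control replicate 1 or 4 or 7.4 Gy replicate 3 for 7.4 Gy. The day 7 average was 1 without control replicate 1 or 2, and the day 12 average 0 without 6.7 Gy replicate 2. With position as a term the comparisons of days 7 and 12 with control or with day 4 could not be estimated. On the arrays of scan day 1 those that include 7.4 Gy day 12 could not be. Signal over background on slides 4 and 5 limits the probes of PROS1 and F3 and the dim probes of PLAU, TFPI and SERPINA3. The dim SERPINA1 probe and those of SERPINA2 and SERPINB11 were well above background on 22 of the 24 arrays, and PROC on 23.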

Other observations

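Among the 14 probes called higher on day 4, some animals were often highest or lowest of their group: 7.4 Gy day 4 replicate 3 was highest in 10 and replicate 2 lowest in 10, 6.7 Gy day 4 replicate 3 was highest in 8 and replicate 1 lowest in 8, and 7.4 Gy day 7 replicate 4 was highest in 10. The controls showed less of this: each was highest in 2 to 6 of the 14 and lowest in 3 to 4. No such count was made over all probes.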
